A study of Rattus norvegicus with 30 samples.

Results

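The genes described are the ligands and receptors of platelet-derived growth factor (PDGF), namely the ligand genes Pdgfa, Pdgfb, Pdgfc and Pdgfd and the receptor genes Pdgfra and Pdgfrb. They were taken by name from the table of genes, and all 6 were present among its 30562 rows and among the 16171 genes that had enough counts to be tested. RNA was sequenced from CD31-positive cells of wild-type rat lung, isolated with microbeads 3 weeks after a sham operation or a Glenn operation, which leads blood of a caval vein straight into the pulmonary artery. The rats of both operations ate 1 of 3 modified diets, in which vitamin A was at a control level, deficient or in excess, so that the 30 libraries form 6 groups of 5. No strain, age or sex is in the labels used here, and they do not say whether the libraries of a group came from separate animals, so that the p-values below measure the spread between these samples. CD31 marks endothelial cells, but the sorted cells are a bulk sample, in which fewer cells of a type and less RNA per cell cannot be told apart.

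PDGF ligands are secreted dimers that bind receptor tyrosine kinases on neighbouring cells. PDGF-B is released by endothelium, is held near the vessel wall by a basic retention motif, and draws pericytes and smooth muscle cells, which carry the beta receptor, to the vessel. PDGF-A acts through the alpha receptor of fibroblasts and of the precursors of alveolar myofibroblasts. PDGF-C and PDGF-D are made as latent proteins whose CUB domain must be cut off by a protease before they bind the alpha and the beta receptor, respectively.

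Total estimated counts per library ran from 22 M to 77.6 M (M, mega), with a median of 40.0 M. The lowest and highest estimated counts per library were 498 and 1682 for Pdgfa, 234 and 563 for Pdgfb, 41 and 289 for Pdgfc, 850 and 3486 for Pdgfd, 66 and 1335 for Pdgfra, and 613 and 3920 for Pdgfrb. Levels are given as CPM, counts set to a common total of 1 M with scaling by trimmed mean of M-values, and since they are not divided by gene length they are compared between groups and not between genes. Endothelial markers such as Cdh5 and Cldn5 were present in every library, with a summed level of 5031 to 7999 CPM over 7 genes. Other cells were also present in the sorted samples. The 6 type 2 alveolar markers summed to 25930 to 62860 CPM, the 10 fibroblast markers to 1293 to 4722 CPM and the 6 leukocyte markers to 2.53 to 37.2 CPM. By the numbers in the library names, 22 libraries formed series A and 8 formed series B, and series was a term in the model. Expression of the histocompatibility gene RT1-CE16 was above 100 CPM in 13 libraries and below it in 17. Sex was called from expression of Ddx3y, with 13 libraries above 10 CPM taken as male and 17 as female. Every group held both sexes. All 5 sham excess libraries were in series A and low in RT1-CE16. On the deficient and excess diets every series A library was low and every series B library high in RT1-CE16. Series and RT1-CE16 class thus cannot be told apart on these diets.

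Surgery, averaged over diets, changed 5 of the 6 PDGF genes, with Pdgfa, Pdgfc, Pdgfra and Pdgfrb higher and Pdgfd lower after the Glenn operation (edgeR quasi-likelihood test, Benjamini-Hochberg adjusted p under 0.05). Of all genes tested, 48.2% changed in that comparison, 23.4% higher and 24.7% lower, so that a call alone sets none of the 6 genes apart. Pdgfb was the gene that did not pass. The number of PDGF genes called was 2 on the control diet, where 24.9% of all genes were called, 3 on the deficient diet (27.4%) and 4 on the excess diet (21.9%). The median log2 change of the 6 genes was 0.36, 0.60 and 0.90 on the 3 diets in that order, beside -0.01, -0.01 and -0.02 for all genes tested.

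**Figure D1:**
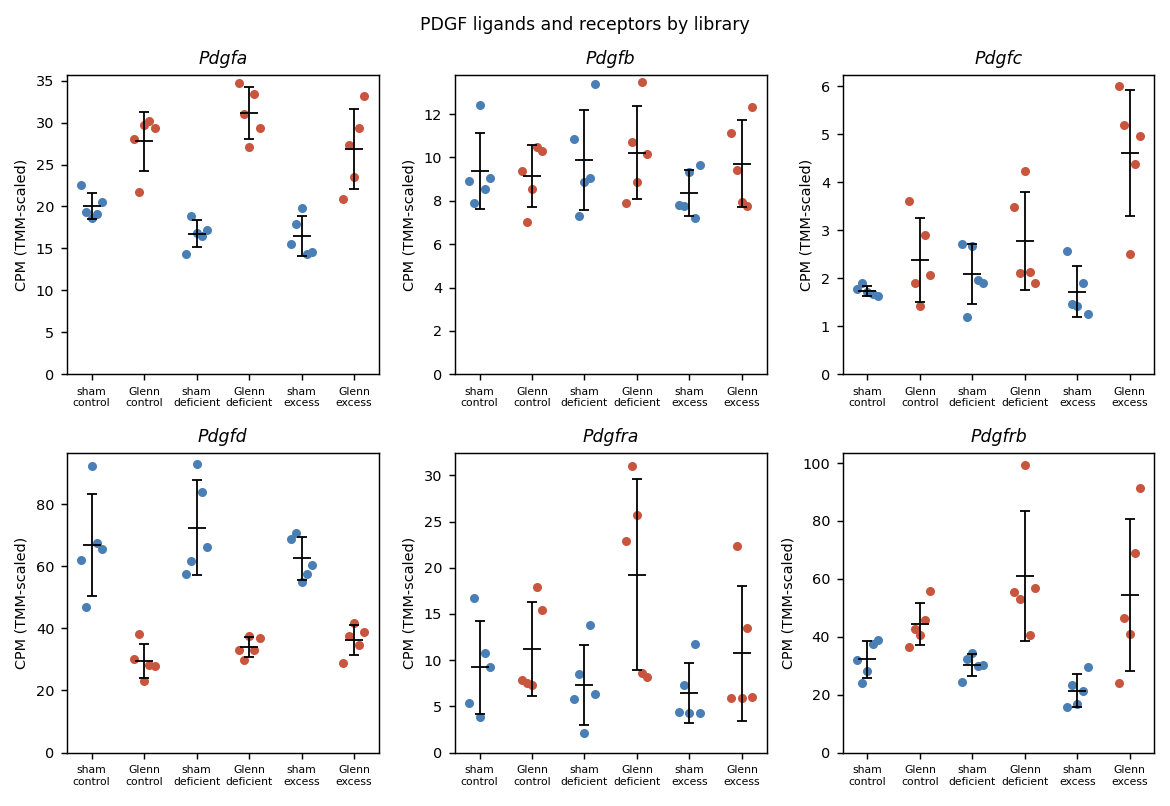
CPM of each PDGF gene (linear vertical axes from 0) in the 6 groups, with 1 point per library and the mean ± SD of 5 libraries in black. Sham libraries are blue and Glenn libraries red, and for Pdgfd all 15 Glenn points (23.1 to 41.9) lie below all 15 sham points (46.8 to 93.1).

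Pdgfd (ENSRNOG00000029148) encodes the ligand of the beta receptor that is activated by proteolysis. It was lower after the Glenn operation on every diet. The letters below are RefSeq's sequence of the 250 bases before the gene start of Pdgfd and of 2 other ligand genes, from the GRCr8 build, to show the promoters of a ligand that fell, one that rose and one that did not pass the test. Capitals mark matches to the Sp1 motif GGGCGG and the Krüppel-like factor core CACCC, searched on both strands, and no 2 matches overlapped.
Pdgfd, chr8:11773258-11773507, plus strand: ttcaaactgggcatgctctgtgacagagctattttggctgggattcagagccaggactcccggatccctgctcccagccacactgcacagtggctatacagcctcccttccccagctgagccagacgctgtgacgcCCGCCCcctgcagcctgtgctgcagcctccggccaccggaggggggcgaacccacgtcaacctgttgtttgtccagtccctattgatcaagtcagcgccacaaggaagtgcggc
Pdgfa, chr12:20759116-20759365, plus strand: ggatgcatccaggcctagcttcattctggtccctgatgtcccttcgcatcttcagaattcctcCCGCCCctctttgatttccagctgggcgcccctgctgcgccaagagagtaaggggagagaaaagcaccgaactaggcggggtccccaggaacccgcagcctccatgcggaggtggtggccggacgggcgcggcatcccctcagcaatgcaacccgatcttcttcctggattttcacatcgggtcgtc
Pdgfb, chr7:113438344-113438593, minus strand: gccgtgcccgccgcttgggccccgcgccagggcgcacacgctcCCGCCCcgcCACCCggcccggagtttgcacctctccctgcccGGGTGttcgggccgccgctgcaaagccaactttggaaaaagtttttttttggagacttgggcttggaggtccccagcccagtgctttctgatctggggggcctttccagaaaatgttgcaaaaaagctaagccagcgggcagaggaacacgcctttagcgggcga
The Sp1 motif began 114 bases before the start in Pdgfd, 187 in Pdgfa and 207 in Pdgfb, and 30.5% of 33469 rat promoter windows of this length held it. Matches to the Krüppel-like factor core lay 198 and 165 bases before the start of Pdgfb and in 49.2% of all windows. The shear stress response motif GAGACC, found in 13.7% of windows, was in the window of Pdgfra, 120 bases before the start, and in none of the windows of the 4 ligand genes. A match is a run of letters and says nothing about binding.

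On the control diet the 5 sham libraries held 62.1, 46.8, 92.5, 67.7 and 65.7 CPM of Pdgfd and the 5 Glenn libraries 30.1, 38.1, 23.1, 28.3 and 27.8 CPM. On the deficient diet the sham libraries held 57.5, 61.7, 93.1, 83.9 and 66.4 CPM and the Glenn libraries 33.1, 29.8, 37.6, 33.0 and 36.9 CPM. On the excess diet the sham libraries held 69.0, 70.7, 55.1, 57.7 and 60.3 CPM and the Glenn libraries 28.8, 37.5, 41.9, 34.8 and 38.7 CPM. Every Glenn library was below every sham library, both within each diet and over all 15 against 15. Groups did not overlap for 17.2% of all genes for the control, 19.6% for the deficient and 16.3% for the excess diet. Groups without overlap in the 15 against 15 comparison were seen for 5.83% of all genes, and in each of the 3 diets for 7.85%. Over all diets Pdgfd stood at 67.3 ± 13.3 CPM in the 15 sham and at 33.3 ± 5.20 CPM in the 15 Glenn libraries (mean ± SD).

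Pdgfd fell by 1.18 on the log2 scale on the control diet (SE 0.14, edgeR adjusted p = 2.18e-07), by 1.03 on the deficient diet (SE 0.14, 2.94e-06) and by 0.93 on the excess diet (SE 0.16, 5.88e-05). Averaged over diets the log2 change was -1.05 (SE 0.08, edgeR adjusted p = 1.6e-11), a 2.07-fold lower level. A call in the lower direction on all 3 diets was made for 6.46% of all genes. The order of the 6 group means was Glenn control, Glenn deficient, Glenn excess, sham excess, sham control and sham deficient, and the step from Glenn excess to sham excess, 26.2 CPM, was the single step between neighbours that exceeded the larger SD of the pair. The deficient-diet change was -0.83 in series A and -1.22 in series B (edgeR adjusted p = 0.00967 and 0.000378). The estimated counts of Pdgfd were not whole numbers in all 30 libraries, so that salmon divided some of its reads with another gene's transcripts. Markers of aerocytes, the large capillary cells of the alveolus, moved with surgery in the same direction: 3 of 4 were lower and 1 higher, and their summed level was 899 to 1536 CPM after sham and 370 to 607 CPM after Glenn surgery. Their part in the change of Pdgfd was not tested. Within groups, over 30 libraries, Pdgfd correlated with the aerocyte marker level at r = 0.55 (Spearman 0.55), and about as much with the macrophage (0.55), mesothelial (0.50) and leukocyte levels (0.50). The genes whose deviations were most like its own among 12721 ranked genes were Reep3 (r = 0.77), Gcnt2 (0.72) and Wls (0.70).

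Pdgfa (ENSRNOG00000001312) encodes the ligand of the alpha receptor that drives the growth of alveolar septa. It was higher after the Glenn operation on all 3 diets. Among rats on the control diet, the sham libraries held 22.5, 19.4, 18.6, 19.1 and 20.6 CPM of Pdgfa and the Glenn libraries 28.0, 21.7, 29.8, 30.2 and 29.4 CPM. Among rats on the deficient diet, the sham libraries held 14.3, 18.9, 16.9, 16.5 and 17.2 CPM and the Glenn libraries 34.7, 31.0, 27.0, 33.5 and 29.4 CPM. Among rats on the excess diet, the sham libraries held 15.6, 17.9, 19.9, 14.3 and 14.6 CPM and the Glenn libraries 20.9, 27.3, 23.5, 29.4 and 33.2 CPM. The groups did not overlap on the deficient and excess diets, and on the control diet Glenn replicate 2 lay inside the sham range.

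The log2 change of Pdgfa was 0.47 on the control diet (SE 0.11, edgeR adjusted p = 0.00228), 0.91 on the deficient diet (SE 0.12, 4.74e-07) and 0.65 on the excess diet (SE 0.13, 0.000354). Averaged over diets it was 0.68 (SE 0.07, edgeR adjusted p = 1.2e-09), a 1.60-fold higher level, with means of 17.8 ± 2.43 CPM in the 15 sham and 28.6 ± 4.06 CPM in the 15 Glenn libraries (± SD). A call in the higher direction on all 3 diets was made for 7.05% of all genes. The 3 sham means were below the 3 Glenn means, in the order sham excess, sham deficient, sham control, Glenn excess, Glenn control and Glenn deficient. The steps from sham deficient to sham control and from sham control to Glenn excess exceeded the larger SD of the pair, and the other steps did not. Among RT1-CE16-low libraries the control-diet change was 0.35 and did not pass (edgeR adjusted p = 0.288), while among RT1-CE16-high libraries it was 0.63 (0.00448). Of 4 type 1 alveolar markers, 3 were higher and 1 lower after Glenn surgery averaged over diets. By diet, 1 was higher on the control diet and 3 on the deficient diet. On the excess diet 0 were higher and 1 was lower, and the remaining markers did not pass on these diets. Their summed level was 519 to 901 CPM after sham and 577 to 1615 CPM after Glenn surgery. Within groups, Pdgfa and this level correlated at r = 0.61 (Spearman 0.51) over 30 libraries, and their part in the change of Pdgfa was not tested. Aqp5, the water channel of type 1 alveolar cells and 1 of these markers, was among the 3 genes most like Pdgfa within groups (r = 0.71), with Sdr42e1 (0.72) and Gpx1 (0.70).

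Pdgfb (ENSRNOG00000017197) encodes the ligand by which endothelium recruits pericytes, and no change with surgery was detected on any diet. With the control diet, the sham libraries held 8.93, 7.91, 12.4, 8.55 and 9.03 CPM of Pdgfb and the Glenn libraries 9.38, 7.01, 8.53, 10.5 and 10.3 CPM. With the deficient diet, the sham libraries held 10.9, 7.32, 8.85, 9.07 and 13.4 CPM and the Glenn libraries 7.90, 10.7, 8.85, 13.5 and 10.2 CPM. With the excess diet, the sham libraries held 7.83, 7.77, 9.34, 7.22 and 9.65 CPM and the Glenn libraries 11.2, 9.44, 7.93, 7.75 and 12.3 CPM. The groups overlapped on every diet, and sham and Glenn groups alternated in the order of the 6 means, from 8.36 CPM (sham excess) to 10.2 CPM (Glenn deficient), with no step between neighbours beyond their SD.

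The log2 change of Pdgfb was -0.04 for the control, 0.07 for the deficient and 0.14 for the excess diet (edgeR adjusted p = 0.915, 0.8 and 0.656). Averaged over diets it was 0.06 (SE 0.10, edgeR adjusted p = 0.658), with a normal 95% interval of -0.13 to 0.25, so that a change of Pdgfb as large as that of Pdgfa or Pdgfd lies outside the interval. Relative to the mean of 7 endothelial markers, on a log2(CPM + 1) scale, Pdgfb differed between Glenn and sham by 0.04, 0.13 and 0.26 on the control, deficient and excess diets (exact permutation test, 5 against 5, two-sided, p = 0.802, 0.437 and 0.0556, adjusted over 15 such tests 0.976, 0.741 and 0.208). Relative to 6 arterial markers the differences were 0.05, -0.18 and -0.13 (exact permutation p = 0.794, 0.444 and 0.357). Platelets also carry PDGF, and 6 of 7 platelet and megakaryocyte markers were lower after Glenn surgery, with summed levels of 28.4 to 111.7 CPM after sham and 25.6 to 104.0 CPM after Glenn surgery. Within groups Pdgfb and this level correlated at r = 0.47 (Spearman 0.49) over 30 libraries, and their part in the level of Pdgfb was not tested. The genes most like Pdgfb within groups were Gas2l1 (r = 0.70), Nsg1 (0.66) and Myo10 (0.63).

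Pdgfc (ENSRNOG00000010695) encodes the second protease-activated ligand and acts on the alpha receptor. It had the fewest counts of the 6 genes, and its rise with surgery passed the test on the excess diet alone among the 3 diets. On the excess diet the sham libraries held 2.56, 1.47, 1.42, 1.91 and 1.26 CPM of Pdgfc and the Glenn libraries 6.0, 5.19, 2.50, 4.38 and 4.97 CPM. On the control diet the sham libraries held 1.77, 1.91, 1.71, 1.68 and 1.64 CPM and the Glenn libraries 3.62, 1.89, 1.42, 2.91 and 2.07 CPM. On the deficient diet the sham libraries held 2.71, 1.2, 2.67, 1.97 and 1.91 CPM and the Glenn libraries 3.47, 2.11, 4.24, 2.13 and 1.91 CPM. On the excess diet 4 Glenn libraries were above all sham libraries and replicate 3 fell just inside the sham range, whereas on the other diets the ranges overlapped widely.

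The log2 change of Pdgfc was 1.61 on the excess diet (SE 0.30, edgeR adjusted p = 0.000168), a 3.05-fold higher level. It was 0.45 on the control diet (SE 0.27, edgeR adjusted p = 0.247) and 0.30 on the deficient diet (SE 0.28, 0.478), and averaged over diets 0.78 (SE 0.16, 0.000133). The excess-diet change exceeded the control-diet change by 1.16 (SE 0.40), but with an edgeR adjusted p of 0.405 this difference between diets did not pass, in a comparison that called 0.0186% of all genes. On the excess diet the change was 1.70 in series A alone (edgeR adjusted p = 0.00129), and with all sham excess libraries in series A it could not be had within series B. On the excess diet 4 of 6 arterial markers were higher, 1 was lower and 1 did not pass after Glenn surgery, with summed levels of 975 to 1157 CPM in the sham and 951 to 1582 CPM in the Glenn libraries. Within groups Pdgfc and the arterial marker level correlated at r = 0.61 (Spearman 0.52) over 30 libraries, and their part in the change of Pdgfc was not tested. The genes most like Pdgfc were Dhh (r = 0.77), which encodes desert hedgehog, Lyrm7 (0.71) and the thymidylate synthase gene Tyms (0.71).

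**Figure D2:**
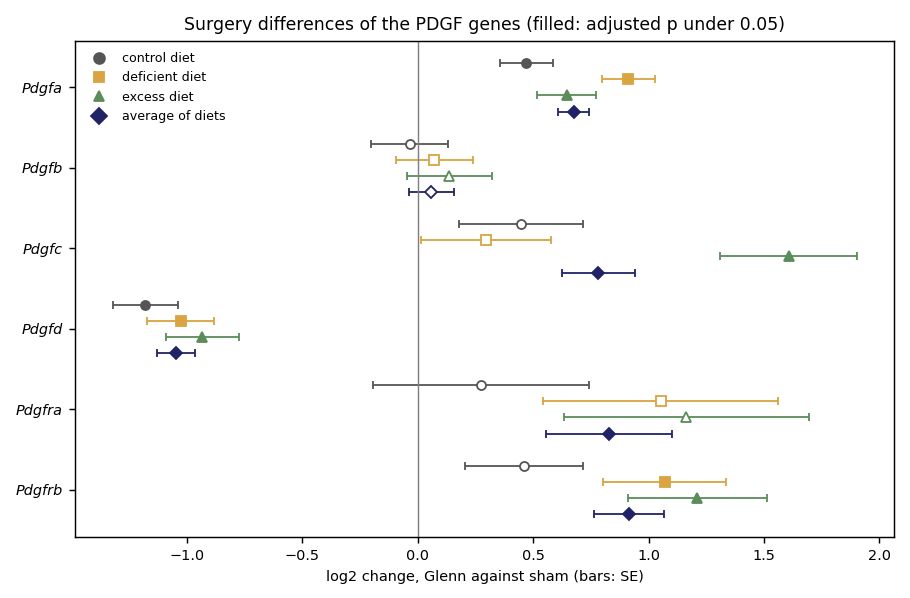
Fitted log2 change of each PDGF gene after Glenn against sham surgery (horizontal axis, bars are SE) on each diet and averaged over diets, with filled symbols for an edgeR adjusted p under 0.05. The 4 symbols of Pdgfd lie between -1.18 and -0.93, those of Pdgfb between -0.04 and 0.14, and those of Pdgfc range from 0.30 to 1.61.

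Pdgfrb (ENSRNOG00000018461) encodes the beta receptor of pericytes and smooth muscle cells. It was higher after Glenn surgery on the deficient and excess diets. For Pdgfrb on the control diet, the sham libraries held 32.1, 24.0, 28.1, 37.6 and 39.0 CPM and the Glenn libraries 36.5, 42.6, 40.6, 45.9 and 55.7 CPM. With vitamin A deficiency, the sham libraries held 24.4, 32.2, 34.3, 29.9 and 30.4 CPM and the Glenn libraries 55.3, 52.9, 99.3, 40.6 and 56.7 CPM. With vitamin A excess, the sham libraries held 15.6, 23.4, 16.7, 21.4 and 29.7 CPM and the Glenn libraries 24.1, 46.4, 41.1, 68.9 and 91.5 CPM. The groups did not overlap on the deficient diet, and on the control and excess diets 1 Glenn library each, replicate 1, lay inside the sham range. The spread was wider after Glenn surgery, with SDs of 22.4 and 26.2 CPM on the deficient and excess diets against 3.72 and 5.66 CPM after sham.

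The log2 change of Pdgfrb was 0.46 on the control diet (SE 0.26, edgeR adjusted p = 0.206), 1.07 on the deficient diet (SE 0.27, 0.00349) and 1.21 on the excess diet (SE 0.30, 0.00414). Averaged over diets it was 0.91 (SE 0.15, edgeR adjusted p = 1.59e-05), from 27.9 ± 6.94 CPM to 53.2 ± 20.1 CPM (SD, n = 15 each). In order, the group means ran from sham excess (21.4 CPM) over sham deficient, sham control, Glenn control and Glenn excess to Glenn deficient (61.0 CPM), and the steps from sham excess to sham deficient and from sham control to Glenn control exceeded the larger SD of the pair. The deficient-diet change was 1.30 in series A (edgeR adjusted p = 0.0105) but 0.62 and not past the threshold in series B (0.202). The excess-diet change was 0.73 in series A and did not pass (edgeR adjusted p = 0.0933), and it could not be had within series B.

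Markers of the cells that carry the beta receptor moved with surgery as Pdgfrb did. All 8 pericyte markers tested were higher after Glenn surgery averaged over diets (median log2 change 0.88), among them Rgs5 and Notch3 as the most abundant, and their summed level was 83.0 to 137.7 CPM after sham and 150.0 to 403.7 CPM after Glenn surgery. All 9 smooth muscle markers were higher (median 1.93), Myh11 and Tagln being the most abundant, with sums of 113.3 to 274.9 CPM after sham and 357.7 to 1522 CPM after Glenn surgery. No pericyte or smooth muscle marker was at 0 in any library. Relative to the mean of the pericyte markers, on a log2(CPM + 1) scale, Pdgfrb differed between Glenn and sham by -0.03 (control diet), 0.00 (deficient) and 0.31 (excess) (exact permutation test, 5 against 5, p = 0.881, 0.976 and 0.159). Relative to the smooth muscle markers the differences were -0.84, -0.62 and -0.50 (exact permutation p = 0.00794, 0.00794 and 0.0238, where 0.00794 is the smallest p that 5 against 5 allows), and adjusted over 15 tests none of these passed (0.0595, 0.0595 and 0.119). With the pericyte, smooth muscle and fibroblast marker scores as covariates the averaged log2 change of Pdgfrb was -0.40 and did not pass (edgeR adjusted p = 0.217), while that of Pdgfd was -1.0 and passed (0.00303). In that fit Pdgfb averaged 0.43 (SE 0.24, edgeR adjusted p = 0.298), above the interval given for the fit without the covariates, Pdgfa 0.41 (edgeR adjusted p = 0.124), Pdgfc 1.04 (0.093) and Pdgfra 0.09 (0.926), none past the threshold, and on the excess diet Pdgfd was at -0.87 and did not pass (0.0664). Averaged over diets, the fit with the covariates called 1760 of all genes and the fit without them 7792. The pericyte and smooth muscle sums of the sham libraries did not overlap those of the Glenn libraries, so that in such a fit marker level and surgery cannot be told apart.

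Within groups Pdgfrb correlated at r = 0.81 (Spearman 0.66) with the pericyte level and at 0.78 (Spearman 0.68) with the smooth muscle level over 30 libraries. The genes most like it were Gucy1b1 (r = 0.92), a subunit of the nitric oxide receptor, the Notch target Heyl (0.91) and Adcy3 (0.89).

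**Figure D3:**
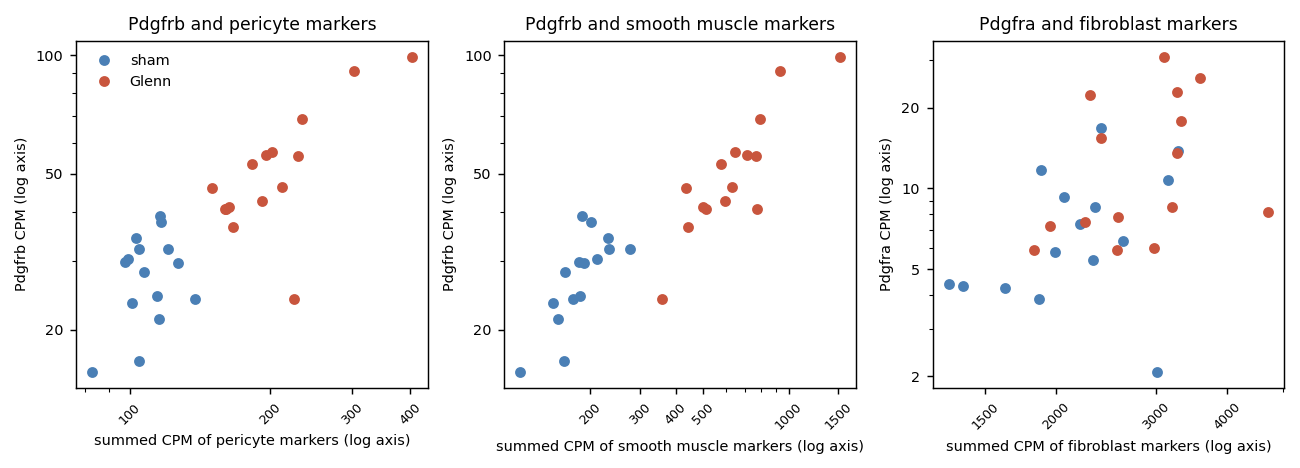
Level of Pdgfrb against the summed CPM of pericyte markers (left) and of smooth muscle markers (middle), and of Pdgfra against the summed CPM of fibroblast markers (right), 1 point per library on log axes. Sham points (blue) reach 137.7 CPM of pericyte and 274.9 CPM of smooth muscle markers and all Glenn points (red) lie above, whereas fibroblast marker sums overlap (1293 to 3270 CPM after sham and 1831 to 4722 CPM after Glenn surgery).

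Pdgfra (ENSRNOG00000002244) encodes the alpha receptor, the defining receptor of lung fibroblasts. It varied most among libraries of a group, with coefficients of variation of 45.5% to 68.0% in the 6 groups, and passed the test only averaged over diets. For Pdgfra on the control diet, the sham libraries held 5.40, 16.7, 3.86, 10.8 and 9.29 CPM and the Glenn libraries 7.81, 7.47, 7.28, 17.9 and 15.4 CPM. In the deficient groups, the sham libraries held 5.82, 8.51, 2.07, 13.8 and 6.36 CPM and the Glenn libraries 22.9, 31.0, 25.7, 8.56 and 8.16 CPM. In the excess groups, the sham libraries held 4.42, 7.36, 4.33, 11.7 and 4.27 CPM and the Glenn libraries 5.88, 22.4, 5.88, 13.5 and 6.0 CPM. The groups overlapped on every diet. On the deficient diet the 3 Glenn libraries with high Pdgfra were those of series A, which were also low in RT1-CE16. The 2 with low Pdgfra were those of series B, which were also high in RT1-CE16.

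The log2 change of Pdgfra was 0.27 on the control diet (SE 0.47, edgeR adjusted p = 0.731), 1.05 on the deficient diet (SE 0.51, 0.132) and 1.16 on the excess diet (SE 0.53, 0.123). Averaged over diets it was 0.83 (SE 0.27, edgeR adjusted p = 0.0141), and among RT1-CE16-low libraries it was 0.83 and did not pass (0.0613). Within series the deficient-diet change was 1.89 in series A (edgeR adjusted p = 0.0556) and 0.17 in series B (0.911). No step between neighbouring group means exceeded their SD. Of 10 fibroblast markers, 8 were higher after Glenn surgery averaged over diets (median log2 change 0.64), none was at 0 in any library, and Col3a1 and Col1a2 were the most abundant. Relative to their mean, Pdgfra differed between Glenn and sham by -0.02, 0.34 and -0.17 on the control, deficient and excess diets (exact permutation p = 0.944, 0.349 and 0.571). Within groups Pdgfra correlated with the fibroblast level at r = 0.84 (Spearman 0.82) and with the lymphatic level at 0.59 (Spearman 0.53) over 30 libraries, and the genes most like it were Gpx3 (r = 0.90), the gelsolin gene Gsn (0.89) and Cyp2e1 (0.89).

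PDGF-B and the beta receptor form the signal from endothelium to mural cells, and the log2 ratio of Pdgfb to Pdgfrb within a library was compared between operations. It was lower after Glenn surgery by -0.48 (control diet), -0.88 (deficient) and -1.02 (excess) (exact permutation test, 5 against 5, two-sided, p = 0.0397, 0.0397 and 0.0317, adjusted over 3 tests 0.0397 each). The groups overlapped on every diet. No change of Pdgfb itself was detected, so that the ratio moved mainly with Pdgfrb. A change in the share of mural cells in the sample cannot be told apart from it. In series A alone the differences were -0.48, -1.19 and -0.39, with none past the threshold (exact permutation test, adjusted p = 0.119, 0.3 and 0.381). In series A the deficient diet had 2 sham against 3 Glenn libraries and the excess diet 5 against 2. The exact test could not go below 0.2 and 0.0952 there, so that the threshold was out of reach. On the excess diet the difference was also smaller, -0.39 in place of -1.02, and the cause was not tested. The direction was the same without each library, but all 3 comparisons lost the threshold in 20 of 30 fits without 1 library, since the adjusted values stand or fall together. They kept it without sham control replicates 4 or 5, sham deficient replicates 2 or 3, sham excess replicates 2, 4 or 5, Glenn control replicate 1, Glenn deficient replicate 4 or Glenn excess replicate 1. Between libraries of a group the PDGF genes were weakly correlated with each other, the 15 pairs ranging from r = -0.32 (Pdgfb and Pdgfra) to 0.30 (Pdgfa and Pdgfrb).

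Vitamin A content changed 1 of the PDGF genes in 1 comparison. After Glenn surgery, the excess diet raised Pdgfc over the control diet, to 4.61 ± 1.32 from 2.38 ± 0.88 CPM (mean ± SD, n = 5). The change was 1.15 on the log2 scale (SE 0.29, edgeR adjusted p = 0.0412), in a comparison that called 1.47% of all genes. The groups overlapped, since 1 excess library, replicate 3, lay inside the control range. The adjusted p was above 0.05 in 14 of 30 fits without 1 library (0.0535 to 0.268). These left out sham control replicate 3, sham deficient replicate 1, Glenn control replicates 2, 3, 4 or 5, Glenn deficient replicates 1, 3, 4 or 5, or Glenn excess replicates 1, 2, 4 or 5, with log2 changes of 1.01 to 1.21. It was also above 0.05 in 9 of 13 other alternatives, 1 of them the fit of series A alone. Against the deficient diet after Glenn surgery the log2 difference of Pdgfc was 0.81 (SE 0.27) and did not pass (edgeR adjusted p = 0.733).

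In the other 5 diet comparisons none of the 6 genes passed by edgeR, DESeq2 or limma voom. These comparisons called 0% (deficient against control after sham), 0.241% (excess against control after sham), 0.0124% (excess against deficient after sham), 0.00618% (deficient against control after Glenn) and 0% (excess against deficient after Glenn) of all genes. At an unadjusted p under 0.05 the 5 comparisons held 1, 2, 0, 0 and 2 of the 6 genes in that order. After sham, the log2 difference of Pdgfa from the control diet was -0.32 for the deficient diet (SE 0.13, edgeR adjusted p = 0.793) and -0.29 for the excess diet (SE 0.11, 0.334), and that of Pdgfrb was -0.59 for the excess diet (SE 0.26, 0.394). For Pdgfd the 6 diet differences ran from -0.10 to 0.15 on the log2 scale.

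The interaction of surgery and diet passed for none of the 6 genes (edgeR adjusted p of at least 0.711, and 0 by DESeq2 and limma voom), in a test that called 0.00618% of all genes. At an unadjusted p under 0.05 it held 2 genes, Pdgfc (0.00835) and Pdgfa (0.0352). The surgery change of Pdgfa was 0.44 larger on the deficient than on the control diet (SE 0.16, edgeR adjusted p = 0.996).

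The proteins that cut, bind or retain PDGF were described by a list of 23 genes. Averaged over diets, 12 were higher, 3 lower and 8 did not pass after Glenn surgery. In this comparison, from which the counts of the next 3 lists also come, 48.2% of all genes were called, 23.4% higher and 24.7% lower. The median log2 change of the list was 0.34 beside -0.01 for all genes. Hspg2, the heparan sulphate core protein perlecan, rose from 15.6 ± 2.36 to 64.9 ± 22.6 CPM (log2 change 2.04, SE 0.15, edgeR adjusted p = 5.27e-12). Sparc, a matrix protein that binds PDGF-B, rose by 0.86 (SE 0.08, edgeR adjusted p = 3.56e-10). Nrp1, a coreceptor, fell from 963 ± 116 to 579 ± 67.4 CPM (log2 change -0.74, SE 0.06, edgeR adjusted p = 1.91e-11), and Plat, the tissue plasminogen activator that activates PDGF-C, fell by 0.69 on the log2 scale (SE 0.10, 2.36e-06). A2m, a plasma protease inhibitor that binds PDGF, went from 0.14 ± 0.18 to 2.51 ± 2.73 CPM (log2 change 4.35, SE 0.53, edgeR adjusted p = 9.69e-08), and is named here because its values stood out when seen.

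Downstream of the receptors, 36 of 37 listed genes of signal relay and shut-off were in the table and tested, the missing name being an alias of another listed gene. Of these 11 were higher, 9 lower and 16 did not pass, with a median of 0.00, beside 48.2% of all genes called. The adaptor Shc1 rose from 134 ± 7.15 to 201 ± 18.5 CPM (log2 change 0.58, SE 0.04, edgeR adjusted p = 1.32e-12) and the kinase Abl1 by 0.53 (SE 0.05, 6.5e-11). The phosphoinositide 3-kinase subunit Pik3ca fell by 0.49 on the log2 scale (SE 0.05, edgeR adjusted p = 8.24e-09) and Stat5a by 0.52 (SE 0.06, 3.59e-08). These genes are expressed in many cell types, and their values come from all the sorted cells.

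Other signals between endothelium and mural cells were counted over 20 genes, of which 13 were higher, 5 lower and 2 did not pass (median log2 change 0.44), beside 23.4% of all genes higher and 24.7% lower. Angpt2, the ligand that loosens the contact of pericytes with vessels, rose from 16.1 ± 1.27 to 85.0 ± 18.1 CPM (log2 change 2.38, SE 0.09, edgeR adjusted p = 3.76e-18). Gja1, a gap junction protein, rose by 1.34 (SE 0.08, edgeR adjusted p = 1.26e-13). Eng, a coreceptor of bone morphogenetic proteins, fell from 2287 ± 283 to 821 ± 179 CPM (log2 change -1.45, SE 0.07, edgeR adjusted p = 3.11e-16), and Edn1, the vasoconstrictor endothelin, fell by 0.99 on the log2 scale (SE 0.08, 5.1e-12). Notch3 is in this list and among the pericyte markers, Tie1 among the endothelial markers and Ednrb among the aerocyte markers.

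The related receptor tyrosine kinases of class III and their ligands were 7 genes, of which 2 were higher, 3 lower and 2 did not pass, beside 48.2% of all genes called. The ligand Flt3lg rose by 0.35 (SE 0.05, edgeR adjusted p = 2.06e-06) and the macrophage receptor Csf1r by 0.71 (SE 0.17, 0.00136). The receptor Kit fell by 0.57 on the log2 scale (SE 0.07, edgeR adjusted p = 4.55e-08) and its ligand Kitlg by 0.48 (SE 0.08, 7.09e-06).

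**Figure D4:**
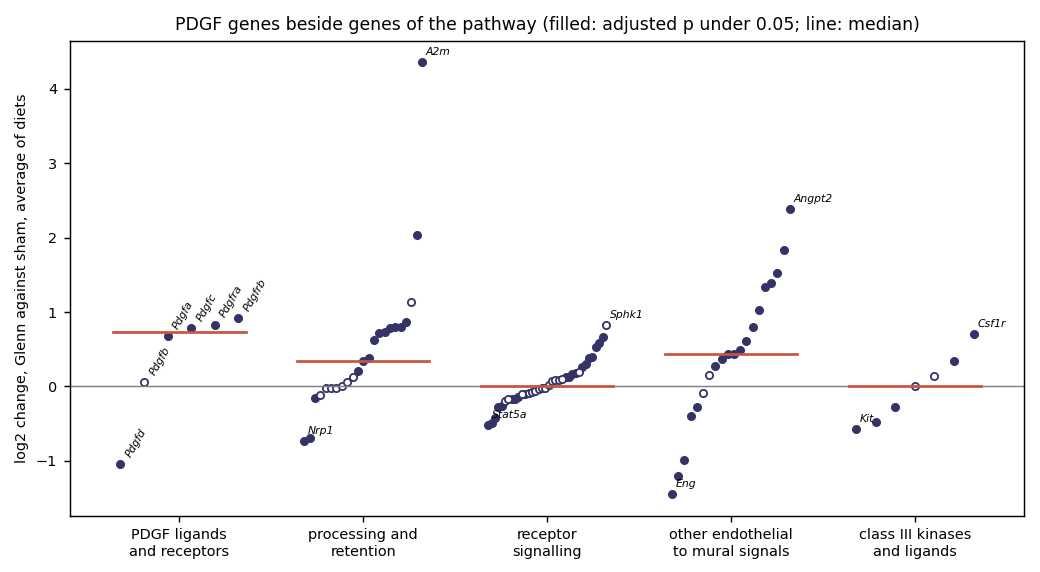
Log2 change after Glenn against sham surgery averaged over diets (vertical axis) for the 6 PDGF genes and the genes of 4 lists, 1 point per gene, filled for an edgeR adjusted p under 0.05, with the list median as a red line. All PDGF genes are named, and in each list the genes at both ends. The medians of the lists are 0.34 (processing and retention), 0.00 (receptor signalling), 0.44 (other endothelial to mural signals) and 0.01 (class III kinases and ligands).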

How the data were processed

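The authors deposited 1 table of estimated counts per gene, made with salmon, per the file's name. The submitters' processing notes also list FastQC, Trim Galore, Picard, STAR and the builds mRatBN7.2 and rn7, with no order or parameters. Per the labels' protocols, libraries were made with a SMART-Seq low-input kit. Of the values, 13.6% were not whole, and all were rounded.

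Low genes were removed (filterByExpr, edgeR 4.0.16: at least 10 counts in enough libraries and 15 in all). One quasi-likelihood fit (glmQLFit, robust) held all 30 libraries, with 6 group means and the library series, and p-values were adjusted over all 16171 genes tested (threshold 0.05). SE is the fitted change over the square root of F. In simulated data with 200 genes changed 2-fold on the control diet, among 15996 genes run, 142 were recovered with 4 false calls. The simulated counts held no series difference and no other changed genes, whereas 24.9% of genes were called on that diet in the data. Levels relative to markers were log2(CPM + 1) minus the mean of the markers. Counting error alone gives an SD of 15.6% at the lowest Pdgfc count and of 1.60% at the highest Pdgfrb count.

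All 6 PDGF genes were named. Of each pathway list, the 2 raised and 2 lowered genes with the smallest adjusted p were named, and for likeness the 3 genes with the highest Pearson r. Likeness used log2(CPM + 1) as deviations from group means, in genes averaging 1 CPM or more, with library and depth shared by both genes. The members, lists, tests and the RT1-CE16 split were chosen with earlier results of these data known. Of 15 pairs of groups, 2 had correlated deviations in all 5 same-numbered pairs, a hint from the data that the numbers pair them: sham control and sham deficient (0.139 to 0.258), a comparison made here, and sham deficient and Glenn excess (0.104 to 0.279), which is not. Alternatives were other tools (DESeq2 1.42.0, voom of limma 3.58.1), terms, filters and libraries. R 4.3.3 and scipy 1.17.1 were used.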

Additional observations from a re-analysis of the deposited data

Results flagged for a closer look

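Among 36 sets of 5 libraries, 1 per gene and group, 3 had 1 library that stood apart from the remaining 4, and about 1.8 (1 in 20) are expected by chance. In each, the gap to the nearest library was a large share of the range of the group.

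Pdgfrb after Glenn surgery on the deficient diet was highest in replicate 3, at 99.3 CPM, with a gap of 0.727 of the range. Without it the log2 change on that diet was 0.82 in place of 1.07 (edgeR adjusted p = 0.014). This library also held the highest summed pericyte (403.7 CPM) and smooth muscle (1522 CPM) marker levels of all 30.

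Pdgfa after Glenn surgery on the control diet was lowest in replicate 2, at 21.7 CPM, with a gap of 0.747 of the range. Without it the log2 change was 0.55 in place of 0.47 (edgeR adjusted p = 0.000453). Pdgfb after sham surgery on the control diet was highest in replicate 3, at 12.4 CPM, with a gap of 0.753 of the range. Without it the log2 change was 0.10 in place of -0.04 (edgeR adjusted p = 0.737).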

How the results depend on the processing

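Leaving out each library in turn ended no surgery call of a PDGF gene, and 1 was gained, Pdgfra on the deficient diet without sham deficient replicate 4 (log2 change 1.53, edgeR adjusted p = 0.0197). With the 3 marker scores as covariates, Pdgfrb had the other sign on the deficient (-0.41) and excess diets (-0.38) and averaged (-0.40), with none past the threshold, and the number of PDGF genes called was 1 on the control diet, 1 on the excess diet and 1 averaged, each time Pdgfd or Pdgfc. The count on the control diet was also 1 among RT1-CE16-low libraries. Pdgfd kept its direction under every alternative run, from -1.41 to -0.78 within diets.

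Other calls depended on the setting. Pdgfrb on the deficient diet did not pass among RT1-CE16-high libraries (0.62), nor on the excess diet among RT1-CE16-low libraries (0.73) or with those 2 groups alone (0.73). On the deficient and excess diets the RT1-CE16 classes held the same libraries as the series, so such fits are not separate from those within series. With the 2 excess groups alone and a series term, the change likewise rested on the Glenn excess libraries of series A. Pdgfrb passed on the control diet with its 2 groups alone (0.47). Pdgfra passed on the deficient diet with no series term (1.40), by voom (1.29), with RT1-CE16 and sex terms (1.39) and among RT1-CE16-low libraries (1.89), and on the excess diet by voom (1.47).

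For the excess against the control diet after Glenn surgery, the main fit called 237 of all genes. The count of PDGF genes was 0 in the fits that follow, with the number of all genes called in brackets. These were no series term (19), series A alone (267), no filter on low counts (182), the 2 groups alone (10) and the marker covariates (156). It was also 0 with the RT1-CE16 term (78), that term with sex (76) and RT1-CE16-low libraries alone (11), and 0 to 1 leaving out libraries. The ratios of Pdgfb to Pdgfrb past the threshold were 0 of 3 in series A alone, where 2 of the tests could not reach it, and 0 to 3 leaving out libraries.

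With the replicate number as a block, the count for the excess against the control diet after Glenn surgery was 0, with 34 of all genes called. That of the Pdgfb to Pdgfrb ratios was 0 of 3 (5 pairs cannot go below an exact permutation p of 0.0625). Pdgfra passed with the block on the deficient (1.18) and excess diets (1.40). The block changed no other call of a PDGF gene. Among the comparisons made, all 5 same-numbered pairs correlated above 0.1 only for deficient against control after sham. In these groups libraries of the same number also had the same RT1-CE16 class and sex. A pairing by number cannot be told apart from these there, and whether the numbers pair samples in any comparison was not tested. Over all pairs of groups, 38 of 75 same-numbered pairs correlated above 0.1, and 32 correlated best with their own number.

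Counts over all genes moved by more than 1.5 times. On the control diet 4023 genes became 1298 to 4380 over all alternatives, on the deficient diet 4423 became 1275 to 4770, on the excess diet 3549 became 1030 to 4370 and averaged 7792 became 1760 to 8160. The diet comparisons moved from 0 to 26 at most (deficient against control after sham), 39 to 0 to 210 (excess against control after sham), 2 to 0 to 12 (excess against deficient after sham), 1 to 0 to 63 (deficient against control after Glenn), 237 to 2 to 557 (excess against control after Glenn) and 0 to 18 at most (excess against deficient after Glenn), and the interaction from 1 to 0 to 35. The lowest counts of the surgery comparisons, 1298, 1275, 1030 and 1760, all came from the fit with the 3 marker scores as covariates. In that fit marker level and surgery cannot be told apart. The cause of the moves was not tested.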
